A study of Homo sapiens with 24 samples.

Results

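The genes of the AP-1 transcription factor were followed in 4 established human glioblastoma cell lines, with and without forced expression of WWOX. The 8 genes were FOS, FOSB, FOSL1 and FOSL2 of the Fos family, JUN, JUNB and JUND of the Jun family, and the related BATF3. They were taken by gene symbol out of 43037 genes in the table, and all 8 were found there. FOSL2 was also picked out by the study as a driver gene on these very libraries, so its values are not independent evidence.

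AP-1 is a dimer of basic leucine zipper (bZIP) proteins. Jun proteins pair with each other or with a Fos protein, whereas Fos proteins need a Jun partner to bind DNA well. FOS, FOSB, JUN and JUNB are classical immediate-early genes that growth factors and stress switch on within minutes through mitogen-activated protein kinases. FOSL1 and FOSL2 respond later and last longer, and in glioblastoma FOSL1 is known for its link with the mesenchymal state. BATF3 is a bZIP protein without a transactivation domain that pairs with Jun proteins and is best known in dendritic cells.

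Cap analysis of gene expression (CAGE) counts sequence tags from the capped 5′ ends of RNA, so that a gene's level, as tags scaled to the library total (CPM), is not divided by gene length. In such bulk libraries, fewer cells of a kind and less RNA per cell cannot be told apart. Each line was stably transduced either with a blank puromycin lentivirus ("Vec") or with pLenti-GIII-CMV-GFP-2A-Puro of the GIPZ series, in which the CMV promoter drives WWOX ("WWOX"). Both variants of every line were transduced in starvation medium with polybrene and then selected in puromycin. The selection was called clonal, so the variant and the selected population cannot be told apart. Each of the 8 groups had 3 libraries that the study called biological replicates, 24 in all. T98G was grown in MEM, DBTRG-05MG in RPMI 1640, and U87MG and U251MG in EMEM, so that line and medium cannot be told apart except between U87MG and U251MG, which shared a medium.

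The libraries held between 10756072 and 16953689 tags, and 3 tags corresponded to between 0.177 and 0.279 CPM. The WWOX libraries of U251MG differed most from each other, with Pearson r of scaled log2 values between 0.880 and 0.932, against 0.940 or more within every other group. WWOX itself was measured at 37.9 ± 3.48 CPM in U87MG Vec and 62.7 ± 2.79 in U87MG WWOX (SD, n = 3 each), and at 21.3 ± 0.927 and 29.4 ± 2.25 in DBTRG-05MG. In T98G (43.3 ± 12.2 and 55.6 ± 9.17) and U251MG (33.5 ± 2.96 and 37.4 ± 19.7) its libraries overlapped, and U251MG WWOX replicate 2, at 17.4 CPM, lay below all U251MG Vec libraries. No line passed the test for WWOX with limma (adjusted p = 0.136 in U87MG and 0.553 or more elsewhere), whereas DESeq2 on recovered tags called it higher in U87MG (log2 0.67, adjusted p = 0.0470) and in the mean of the 4 lines (0.39, adjusted p = 0.0220). Whether tags of the transgene were counted for WWOX is not given in the sources used here. Markers of immune cells summed to at most 0.850 CPM in any library and endothelial markers to at most 13.3 CPM, in U251MG WWOX, where 1 of the 3 reached 5 CPM. The epithelial markers EPCAM, CDH1, KRT8 and KRT19 summed to between 14.98 and 31.2 CPM in DBTRG-05MG and to at most 6.47 CPM in the other lines. In DBTRG-05MG only 1 of these 4 genes reached 5 CPM in either variant, so the sum is not a general epithelial signal. The glial and neural stem markers summed to between 506 and 3821 CPM in U251MG and to between 124 and 210 CPM in DBTRG-05MG. They summed to between 18.3 and 82.3 CPM in U87MG and T98G, where AQP4 had 0 tags in every library.

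The bases just before the start of 5 members are shown because the results turn on these genes. RefSeq windows of GRCh38.p14 were available for 6 of the 8 members; FOSL1 and BATF3 had none. The printed bases run from 120 to 3 before the annotated start, except that FOSL2 ends 57 before it. That RefSeq start lies inside the longer span that GENCODE v44 gives FOSL2, so the FOSL2 bases fall within the GENCODE gene but in none of its exons. Capitals mark the matches described after them.
FOS, chr14:75278708-75278825, plus strand: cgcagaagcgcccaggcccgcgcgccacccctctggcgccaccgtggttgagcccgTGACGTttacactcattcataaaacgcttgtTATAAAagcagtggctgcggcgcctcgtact
FOSB, chr19:45467876-45467993, plus strand: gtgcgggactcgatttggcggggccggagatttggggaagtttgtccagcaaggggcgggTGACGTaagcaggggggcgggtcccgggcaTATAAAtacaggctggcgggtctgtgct
FOSL2, chr2:28392738-28392801, plus strand: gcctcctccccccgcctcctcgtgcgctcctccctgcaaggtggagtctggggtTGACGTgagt
JUN, chr1:58784050-58784167, minus strand: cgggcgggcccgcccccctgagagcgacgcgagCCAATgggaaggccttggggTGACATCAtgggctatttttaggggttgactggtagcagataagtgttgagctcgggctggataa
JUNB, chr19:12791366-12791483, plus strand: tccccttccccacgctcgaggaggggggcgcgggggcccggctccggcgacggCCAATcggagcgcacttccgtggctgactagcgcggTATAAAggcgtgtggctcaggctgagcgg

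FOS, FOSB and FOSL2 each carried the letters TGACGT, the core of the cyclic AMP response element, beginning 64, 60 and 66 bases before the start. FOS, FOSB and JUNB had a TATAAA that began 33, 30 and 31 bases before it. JUN had TGACATCA, a variant of the AP-1 element, from 67 bases before its start. JUND had the full palindrome TGACGTCA from 200 bases before its start and a further TGACGT on the opposite strand. Across all 35116 promoter windows of 250 bases, searched on both strands, TGACGT was found in 7.10%, TATAAA in 10.7%, CCAAT in 32.0%, TGACATCA in 2.37% and TGACGTCA, which contains TGACGT, in 1.65%. TGACTCA, the classical AP-1 site, was found in 4.20% of all windows and in none of the 6 member windows, and the CArG box of serum response factor in 1.16% and in none of the 6. Bases further than 250 before the start were not searched, so an element missing here can lie further upstream. A match to such letters is a description of the sequence and not a binding site.

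By GENCODE v44 on hg38, FOS (ENSG00000170345) lies on chromosome 14 from 75278826 to 75282230 and FOSL2 (ENSG00000075426) on chromosome 2 from 28392448 to 28417317. FOSB (ENSG00000125740, 45467995 to 45475179) and JUNB (ENSG00000171223, 12791486 to 12793315) lie on the plus strand of chromosome 19 and JUND (ENSG00000130522, 18279694 to 18281622) on its minus strand. JUN (ENSG00000177606, 58776845 to 58784048) and BATF3 (ENSG00000123685, 212686417 to 212699840) lie on the minus strand of chromosome 1, and FOSL1 (ENSG00000175592, 65892049 to 65900573) on that of chromosome 11. JUN, JUNB and JUND have 1 exon each and the Fos genes 4.

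**Figure D1:**
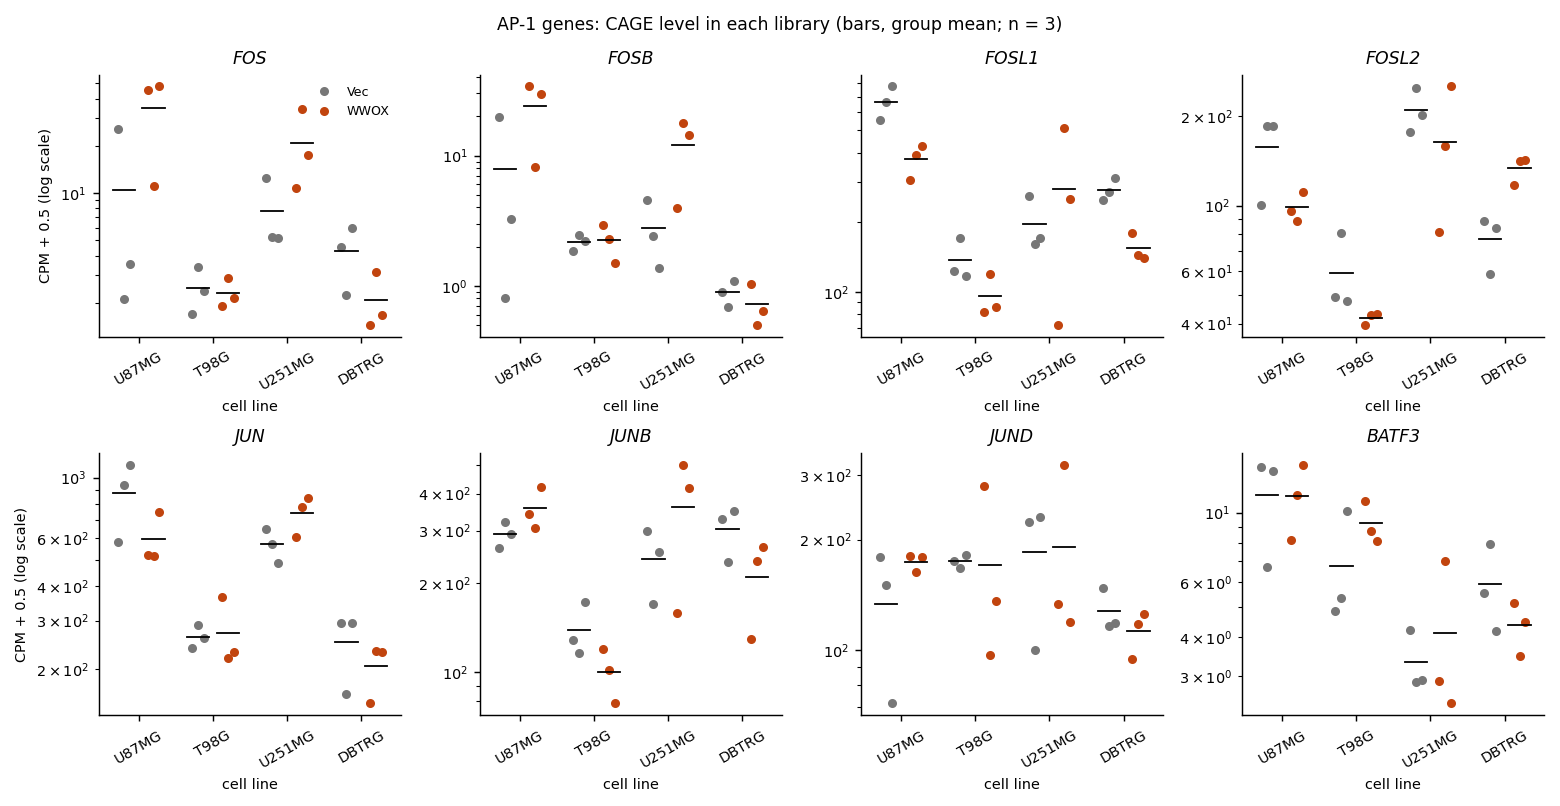
CPM + 0.5 on a log scale, with its own range for each gene, for every Vec (grey) and WWOX (orange) library of the 4 lines; points are libraries and black bars the group means of 3. FOS and FOSB spread over more than a log10 unit among the 3 U87MG Vec libraries, whereas FOSL1, JUN, JUNB and JUND stayed above 60 CPM in all 24 libraries.

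The 8 genes differed widely in level. JUN and FOSL1 reached the highest group means, 878 ± 270 and 663 ± 111 CPM (SD, n = 3), both in U87MG Vec, and FOSB in DBTRG-05MG WWOX had the lowest, 0.223 ± 0.276 CPM. The highest group mean was 106 times the lowest for FOSB, 21.5 times for FOS, 6.97 times for FOSL1, 5.05 times for FOSL2, 4.31 times for JUN, 3.84 times for BATF3, 3.60 times for JUNB and 1.70 times for JUND. JUND, the member usually described as the most constitutive, thus had the narrowest range between groups. Its libraries within a group were not tight, since the residual SD of JUND (0.643 on the log2 scale) lay at the 90.7th percentile of all genes tested. The residual SD of FOSB (1.12) and FOS (1.00) lay at the 99.4th and 98.8th percentiles, and that of JUN (0.381) and FOSL2 (0.408) near the median of all genes (0.398). All 8 members reached 5 CPM in at least 1 library and were tested among 12327 genes.

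Between lines, the comparison of the Vec libraries gave the baseline of AP-1. U87MG stood highest for FOSL1 and JUN. FOSL1 was measured in U87MG Vec at 552, 664 and 774 CPM, in DBTRG-05MG Vec at 250, 269 and 310 CPM, in U251MG Vec at 259, 160 and 170 CPM, and in T98G Vec at 123, 170 and 116 CPM. Every U87MG Vec library was thus above every Vec library of the other lines. How many of all genes separate the lines without overlap was not counted, here or for JUN and FOSL2 below. The log2 difference of U87MG from T98G was 2.29 (SE 0.479, limma adjusted p = 0.000509), from U251MG 1.94 (adjusted p = 0.00245) and from DBTRG-05MG 1.47 (adjusted p = 0.0158).

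JUN, the strongest DNA-binding partner of the Fos proteins, had 583, 938 and 1113 CPM in U87MG Vec and 650, 572 and 486 CPM in U251MG Vec. In T98G Vec it had 237, 288 and 258 CPM and in DBTRG-05MG Vec 293, 161 and 294 CPM. The lowest U87MG or U251MG library lay above the highest T98G or DBTRG-05MG library. U87MG exceeded DBTRG-05MG by 2.04 on the log2 scale (SE 0.308, limma adjusted p = 1.09e-05) and T98G by 1.71 (adjusted p = 0.000106). U251MG exceeded DBTRG-05MG by 1.28 (adjusted p = 0.00258) and T98G was below U251MG by a log2 difference of -0.96 (adjusted p = 0.0203), a call lost without T98G Vec replicate 1 (-0.89, adjusted p = 0.0712) or without U251MG Vec replicate 1 (-0.83, adjusted p = 0.0835). Between U87MG and U251MG the difference of 0.75 did not pass (adjusted p = 0.0580).

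FOSL2 followed another order of lines. U251MG Vec held 177, 249 and 201 CPM and U87MG Vec 99.6, 185 and 185 CPM, whereas DBTRG-05MG Vec held 88.3, 58.2 and 83.6 CPM and T98G Vec 48.6, 80.0 and 47.3 CPM. All U87MG and U251MG Vec libraries were above all Vec libraries of the other 2 lines. T98G was lower than U251MG by a log2 difference of -1.69 (SE 0.320, limma adjusted p = 0.000232), and U251MG higher than DBTRG-05MG by 1.50 (adjusted p = 0.000894). U87MG was higher than T98G by 1.40 (adjusted p = 0.00119) and higher than DBTRG-05MG by 1.21 (adjusted p = 0.00376). FOSL2-AS1 overlaps FOSL2 on the opposite strand, and use of strand in the counting is not given in the sources used here; for the same reason FOSB, inside ERCC1, and JUNB, inside HOOK2, could hold tags of the other strand.

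The remaining members separated the lines less. JUNB was higher in U87MG Vec (262, 321 and 292 CPM) than in T98G Vec (128, 116 and 172 CPM) by 1.10 on the log2 scale (SE 0.410, limma adjusted p = 0.0376). This call was lost without any of 5 of the 6 libraries compared (adjusted p between 0.0531 and 0.128) and with no filter on low genes (0.0649). BATF3 was higher in U87MG Vec (13.5, 6.18 and 13.0 CPM) than in U251MG Vec (3.73, 2.39 and 2.41 CPM) by 1.87 (limma adjusted p = 0.00203). Its difference of 1.13 from DBTRG-05MG Vec (5.04, 7.47 and 3.69 CPM) was called narrowly (adjusted p = 0.0473) and was lost under 5 other settings and without any of 14 libraries. FOSB differed between U87MG and DBTRG-05MG by 2.21 (SE 0.805, adjusted p = 0.0298), but without U87MG Vec replicate 1 this fell to 0.99 (limma adjusted p = 0.267). The call was lost without any of 4 libraries, the others being the 3 DBTRG-05MG Vec libraries, and with no filter (0.0590) or limma-voom (0.0661), while edgeR (4.48) and DESeq2 (4.52) gave larger values that passed.

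**Figure D2:**
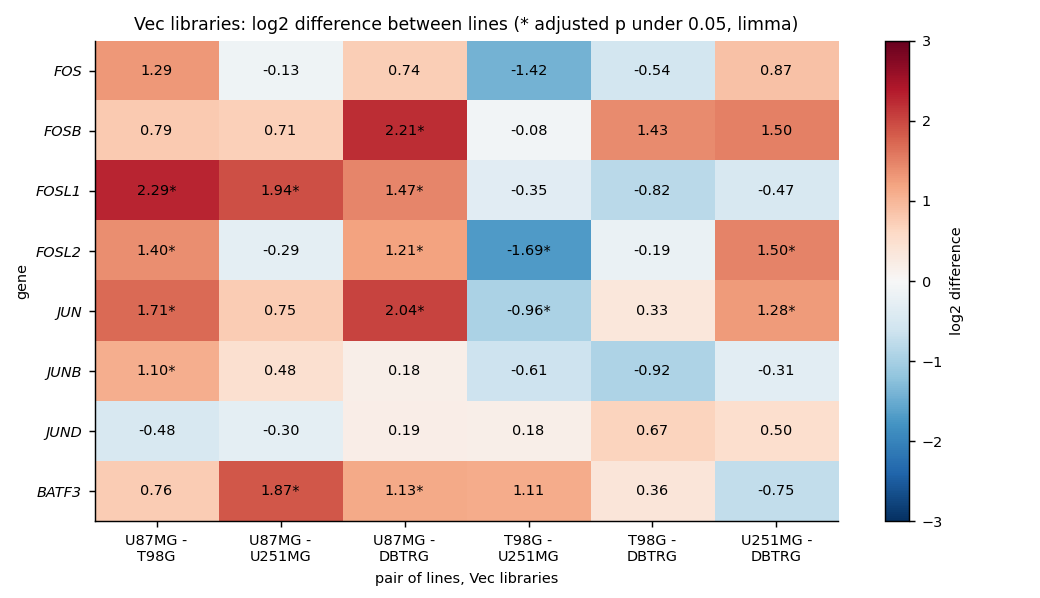
Log2 difference of each gene between the Vec libraries of each pair of lines, 3 against 3 libraries, from limma on scaled log2 values; red is higher in the line named before the minus sign, blue lower, and an asterisk marks an adjusted p under 0.05. All 8 differences of U87MG from DBTRG-05MG are above 0, and 5 carry an asterisk.

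In counts, 4 of the 8 members were higher in U87MG than in T98G, beside 18.0% of all genes tested, and 5 were higher in U87MG than in DBTRG-05MG, beside 19.9%. U87MG had 2 members higher than U251MG (17.9% of all genes), T98G had 2 lower than U251MG (15.4%) and U251MG had 2 higher than DBTRG-05MG (14.6%). With 8 members, a count of 2 is close to these backgrounds. No member passed between T98G and DBTRG-05MG with limma, edgeR or DESeq2, where 41.2% of all genes passed with limma; JUNB had an unadjusted limma p of 0.0355. With the Vec libraries fitted alone 2 members passed there. FOS and JUND passed between no pair of lines with limma, although FOS was called higher in U87MG than in T98G by edgeR (2.37, adjusted p = 0.0246) and DESeq2 (2.40, adjusted p = 0.00537). The limma difference of 1.29 was 0.21 without U87MG Vec replicate 1 (adjusted p = 0.825) and 2.02 without U87MG Vec replicate 2 (0.0438).

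The second comparison asked what WWOX did to AP-1 in each line. With limma, 0 of 8 members passed in any line, beside 3.2% of all genes tested in U87MG, 1.14% in T98G, 1.02% in DBTRG-05MG and 0.316% in U251MG. Before adjustment, a limma p under 0.05 was found for 3 members in U87MG (FOS, FOSB and FOSL2; 11.5% of all genes), 0 in T98G (11.5%), 1 in U251MG (FOSB; 11.5%) and 1 in DBTRG-05MG (FOSL2; 7.63%). Tests on tags recovered from the CPM (edgeR, limma-voom and DESeq2) also called 0 of 8 in every line. In simulated counts for U87MG with 11974 genes, limma recovered 85 of 100 genes changed 4-fold but 16 of 100 changed 2-fold, so that many changes of 2-fold would go uncalled in libraries of this spread. The 8 members had a median log2 fold change of 0.27 in U251MG, 0.09 in U87MG, -0.12 in T98G and -0.40 in DBTRG-05MG, beside medians of all genes between -0.04 and 0. In DBTRG-05MG 7 of 8 estimates were below 0, and in U251MG 6 of 8 were above 0, to which edgeR, limma-voom and DESeq2 added JUND.

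**Figure D3:**
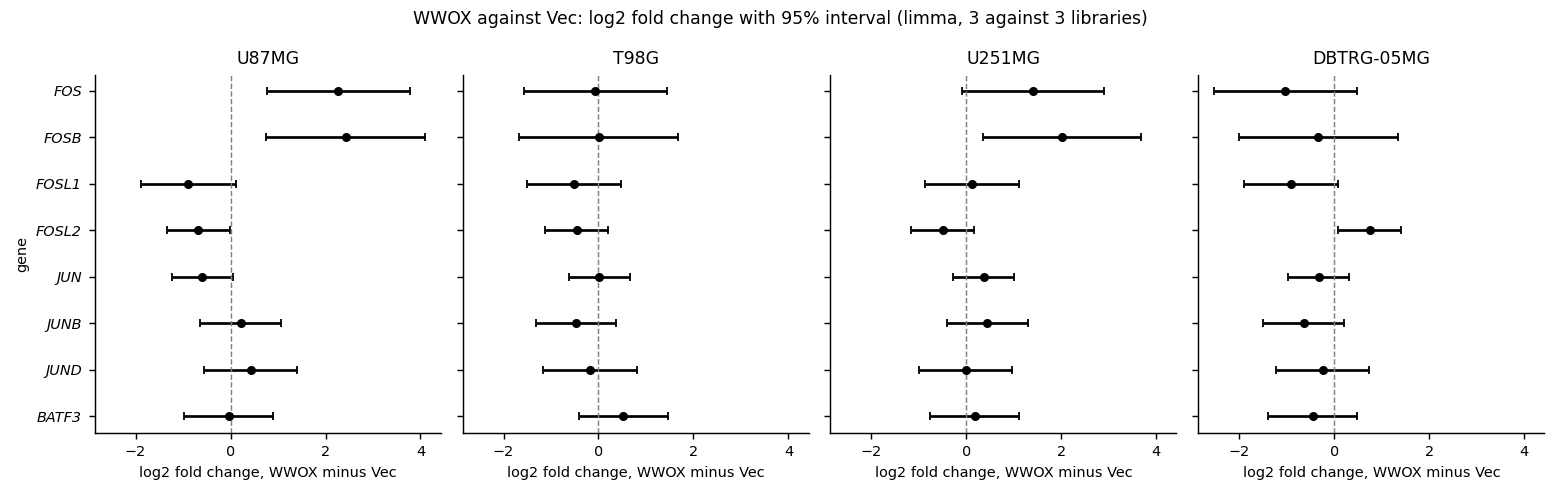
Log2 fold change of WWOX against Vec in each line, on the x axis, with 95% intervals from limma, 3 against 3 libraries, for the 8 genes. FOS and FOSB have the highest estimates in U87MG (2.27 and 2.42) and U251MG (1.41 and 2.01), and FOSL2 is below 0 in 3 lines and above 0 in DBTRG-05MG (0.75).

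FOS, the founding member and a short-lived partner of JUN, had 25.1, 1.62 and 3.02 CPM in U87MG Vec and 44.6, 10.6 and 47.3 CPM in U87MG WWOX. In U251MG it had 11.9996, 4.77 and 4.69 CPM with Vec and 10.4, 33.7 and 17.1 CPM with WWOX. The variants overlapped in both lines, through Vec replicate 1 in each. T98G gave 1.20, 2.88 and 1.87 CPM with Vec beside 1.39, 2.37 and 1.65 CPM with WWOX, and DBTRG-05MG gave 4.06, 1.74 and 5.47 CPM beside 0.944, 2.66 and 1.17 CPM, all low and overlapping. The fold change on the log2(value + 0.5) scale was 4.83-fold in U87MG (log2 2.27, SE 0.723, limma adjusted p = 0.107), with values of 1.41 in U251MG (adjusted p = 0.472), -0.07 in T98G (0.992) and -1.03 in DBTRG-05MG (0.874). Single libraries decided the U87MG value, which was 3.37 without Vec replicate 1 (limma adjusted p = 0.00181) and 2.94 without WWOX replicate 2 (0.0440), but 1.56 without Vec replicate 2 (0.628) and 1.87 without Vec replicate 3 (0.425). On recovered tags it was 1.71 by both edgeR (adjusted p = 0.381) and DESeq2 (0.263), but 2.41 by limma-voom (0.0945). In U251MG, leaving out Vec replicate 1 gave 1.85 (limma adjusted p = 0.354) and leaving out WWOX replicate 2 gave 0.75 (0.614).

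FOSB, the close relative of FOS, had a like pattern. U87MG Vec held 19.2, 0.309 and 2.74 CPM and U87MG WWOX 33.5, 7.74 and 29.4 CPM. U251MG Vec held 4.05, 1.91 and 0.871 CPM and U251MG WWOX 3.43, 17.5 and 13.9 CPM. Again replicate 1 of Vec made the variants overlap in U87MG, and WWOX replicate 1 lay within the Vec range in U251MG. T98G libraries ranged from 0.990 to 2.42 CPM and DBTRG-05MG libraries from 0 to 0.593 CPM in both variants together, the 0 being the only library without a FOSB tag. The log2 fold change was 2.42 in U87MG (SE 0.805, limma adjusted p = 0.131) and 2.01 in U251MG (adjusted p = 0.326). For these 2 lines edgeR gave 1.59 and 2.45, and limma-voom gave 2.78 and 2.27. The U87MG value was 3.66 without Vec replicate 1 (limma adjusted p = 0.00206) and 1.30 without Vec replicate 2 (0.823).

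The libraries in which FOS and FOSB were high were also those in which heat-shock genes were high. Over the 24 libraries the gene most like FOSB was DUSP1, an immediate-early phosphatase of mitogen-activated protein kinases (Pearson r of scaled log2 values 0.930), followed by the chaperone genes HSPB8 (0.868) and HSPA6 (0.848). For FOS the highest were PARD6G-AS1 (0.884), DUSP1 (0.859) and POLR2A (0.848). After removal of the group means, FOS went with PARD6G-AS1 (0.862), HSPA1B (0.849) and HSPA4L (0.823), and FOSB with HSPA1A (0.837), DUSP1 (0.831) and PARD6G-AS1 (0.828). FOS and FOSB themselves correlated at 0.86. These correlations describe 24 libraries that share lines and variants and were picked as the highest of all genes tested. HSPA1A and HSPA1B are near-identical copies, so their split of tags is uncertain. HSPA1A had 3 tags or fewer in every DBTRG-05MG library and 2 and 6 tags in U87MG Vec replicates 2 and 3. In T98G it had between 960 and 4549 tags. Its correlation with FOSB thus rests in part on few tags.

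HSPA6, a chaperone gene that is strictly induced by stress, was measured at 689, 3.55 and 7.01 CPM in U87MG Vec and 377, 117 and 618 CPM in U87MG WWOX. In U251MG it stood at 471, 5.09 and 22.6 CPM in Vec and 513, 2405 and 183 CPM in WWOX. Vec replicate 1 was thus the high control library for HSPA6 in the same 2 lines in which it was the high control library for FOS and FOSB. T98G libraries had between 21.8 and 126 CPM of HSPA6, at FOS levels under 3 CPM, and DBTRG-05MG libraries had at most 4.78 CPM. DUSP1 had 260, 74.6 and 105 CPM in U87MG Vec and 473, 193 and 274 CPM in U87MG WWOX. The part of heat-shock genes in the FOS and FOSB values was not tested.

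**Figure D4:**
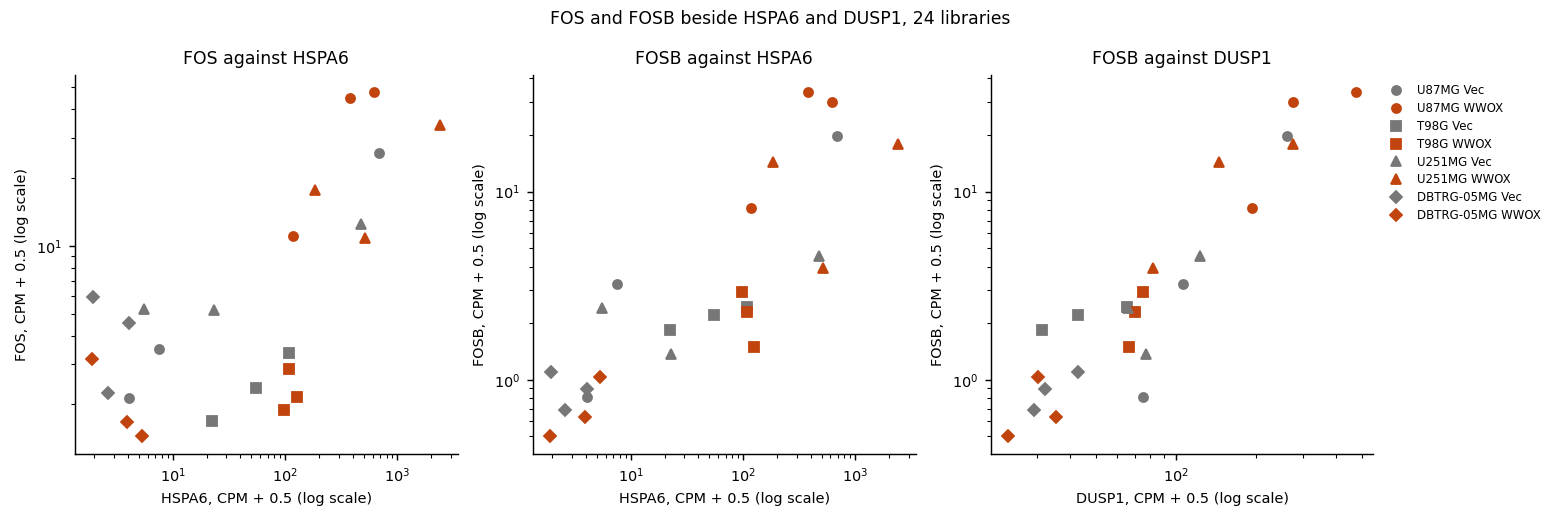
FOS against HSPA6, FOSB against HSPA6 and FOSB against DUSP1 in the 24 libraries, CPM + 0.5 on log axes; the marker shape gives the line and the color the variant (grey Vec, orange WWOX). U87MG Vec replicate 1 lies close to the U87MG WWOX libraries in all 3 panels, and T98G libraries combine up to 126 CPM of HSPA6 with FOS under 3 CPM.

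FOSL1, a long-lived Fos protein without a transactivation domain, was lower with WWOX in 3 of the 4 lines by its means. U87MG Vec held 552, 664 and 774 CPM and U87MG WWOX 305, 393 and 426 CPM. DBTRG-05MG Vec held 250, 269 and 310 CPM and DBTRG-05MG WWOX 179, 144 and 139 CPM. In these lines no WWOX library reached the lowest Vec library. T98G had 123, 170 and 116 CPM in Vec and 81.3, 119 and 85.0 CPM in WWOX, which overlap as deposited but not after scaling. In U251MG the WWOX libraries enclosed the Vec libraries, with 71.3, 513 and 253 CPM beside 259, 160 and 170 CPM.

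On the log2 scale the differences of FOSL1 were -0.89 in U87MG (SE 0.479, limma adjusted p = 0.534), -0.91 in DBTRG-05MG (adjusted p = 0.717), -0.52 in T98G (adjusted p = 0.745) and 0.12 in U251MG (adjusted p = 0.971). WWOX libraries lay wholly below Vec libraries, after scaling, for 9.73% of all genes in U87MG, 10.3% in DBTRG-05MG and 9.21% in T98G. The mean over the 4 lines was -0.55 (SE 0.239, limma adjusted p = 0.276), and exchanging variants within lines in an exact permutation test (two-sided) gave p = 0.0425 (adjusted over all genes, 0.371). Without U251MG WWOX replicate 2, the library with 513 CPM, the mean was -0.77 (limma adjusted p = 0.00885), and without U251MG WWOX replicate 1, the library with 71.3 CPM, it was -0.33 (0.384). For KRT81, U251MG WWOX replicate 2 had 363 CPM and U251MG WWOX replicate 1 had 19.0 CPM. KRT81 was the gene whose deviations from the group means were most like those of FOSL1 (r 0.958, 24 libraries). KRT81 was near 0 in U87MG and DBTRG-05MG and varied little within T98G Vec (99.3 to 120 CPM) and T98G WWOX (40.3 to 45.0 CPM). This likeness therefore rests mainly on U251MG.

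FOSL2 was lower with WWOX in the means of U87MG, T98G and U251MG and higher in DBTRG-05MG. U87MG Vec held 99.6, 185 and 185 CPM and U87MG WWOX 95.3, 87.9 and 111 CPM. T98G Vec held 48.6, 80.0 and 47.3 CPM and T98G WWOX 39.0, 42.4 and 42.6 CPM. U251MG Vec held 177, 249 and 201 CPM and U251MG WWOX 80.9, 158 and 251.4 CPM. The means were lower with WWOX in these 3 lines, without overlap in T98G (as for 9.21% of all genes) and with overlap in U87MG and U251MG.

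In DBTRG-05MG, by contrast, FOSL2 stood at 88.3, 58.2 and 83.6 CPM in Vec and at 117, 141 and 142 CPM in WWOX, with every WWOX library above every Vec library, as for 9.46% of all genes. The log2 fold changes were 0.75 in DBTRG-05MG (SE 0.320, 95% interval 0.08 to 1.41, limma adjusted p = 0.531), -0.68 in U87MG (adjusted p = 0.404), -0.46 in T98G (adjusted p = 0.637) and -0.50 in U251MG (adjusted p = 0.601). The effect in DBTRG-05MG exceeded the mean effect of the other 3 lines by 1.29 (SE 0.369, 95% interval 0.53 to 2.06). This difference did not pass over all genes (limma adjusted p = 0.127). In such comparisons of 1 line with the other 3, limma called 0 of 8 members, beside 2.39% of all genes for U87MG, 1.54% for T98G, 0.422% for U251MG and 0.982% for DBTRG-05MG. Before adjustment, FOS was under 0.05 for U87MG (9.92% of all genes) and both FOS and FOSL2 for DBTRG-05MG (7.1%), with 0 members for T98G (12.8%) and U251MG (11.4%). Without U251MG WWOX replicate 1 it was 1.12 and passed (adjusted p = 0.0388). Since the study had singled out FOSL2 on these libraries, this difference is not independent of that choice.

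In the deviations from the group means, FOSL2 was close to MYBL2 (r 0.929), a transcription factor gene of the cell cycle, and to RECQL4 (0.914), a DNA helicase gene, over 24 libraries. MYBL2 had 57.02, 286 and 175 CPM in U87MG Vec beside 99.6, 185 and 185 CPM of FOSL2. In U251MG WWOX it had 2.19, 29.5 and 48.8 CPM beside 80.9, 158 and 251.4 CPM. Both genes were therefore lowest in replicate 1 of these groups.

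Shares of the Fos family differed between lines and, in DBTRG-05MG, between variants. FOSL1 gave 79.2 ± 1.10% of Fos family tags in U87MG Vec, 68.9 ± 1.98% in T98G Vec, 77.4 ± 4.41% in DBTRG-05MG Vec and 47.0 ± 9.56% in U251MG Vec (SD, n = 3 each). U251MG Vec was the only control group in which FOSL2, with 50.8 ± 10.6%, gave a larger mean share than FOSL1. In DBTRG-05MG the share of FOSL1 was 53.2 ± 6.08% with WWOX and that of FOSL2 was 46.2 ± 5.99%, against 21.5 ± 4.08% with Vec. The FOSL1 shares of single libraries ran from 72.9% to 81.7% in Vec and from 49.2% to 60.2% in WWOX without overlap, and the ratio of FOSL1 to FOSL2 tags was 3.72 ± 0.896 and 1.18 ± 0.306. The difference in shares was not tested. The summed Fos family level was 357 ± 37.8 CPM in DBTRG-05MG Vec and 289 ± 7.16 in WWOX. FOS and FOSB together never dominated, the highest group means being 6.39 ± 3.78% and 4.44 ± 2.74% in U87MG WWOX.

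**Figure D5:**
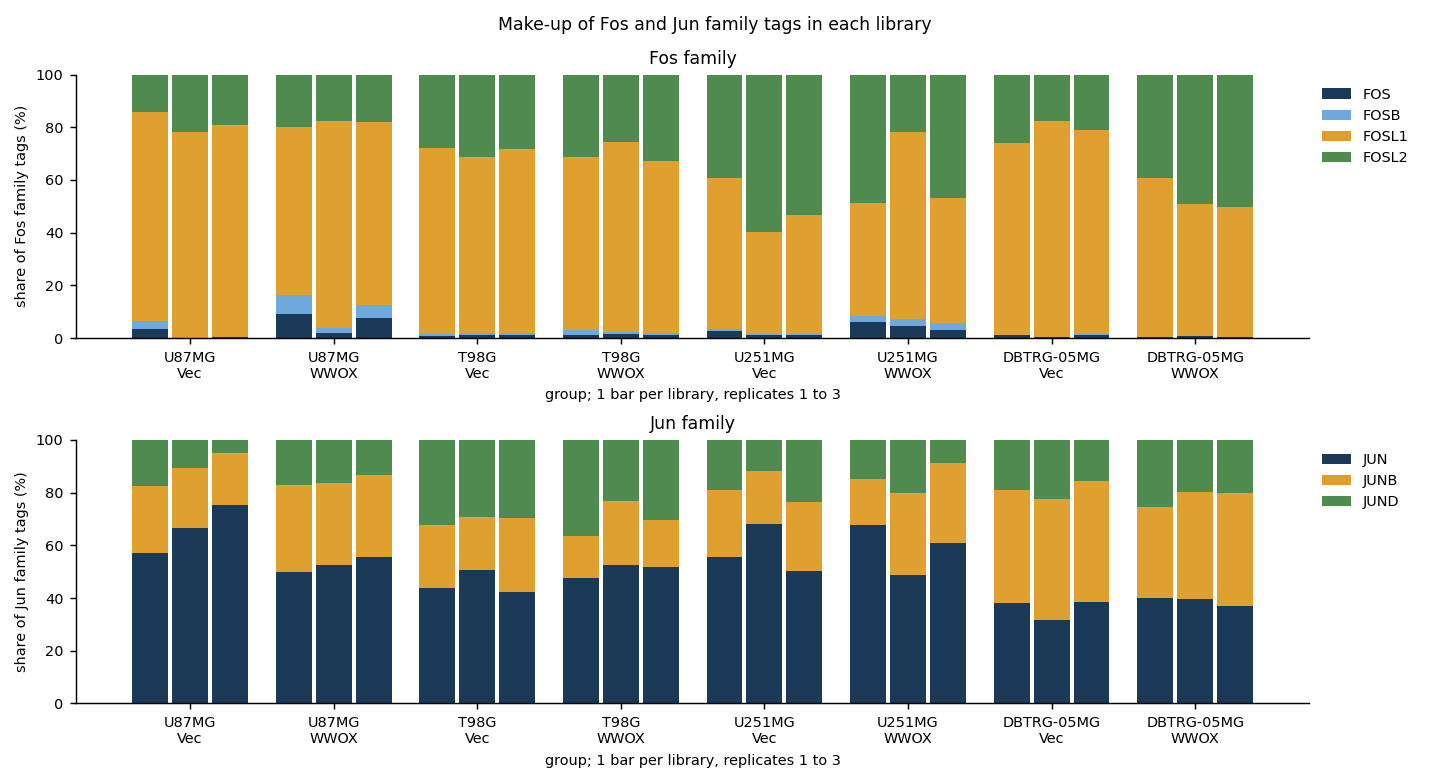
Share of Fos family tags (upper panel) and Jun family tags (lower panel) held by each gene, in percent, with 1 bar per library and 3 per group. FOSL1 and FOSL2 hold most Fos family tags in every library, and the 3 DBTRG-05MG WWOX libraries show FOSL2 at 39.3% or more, against 25.8% or less in DBTRG-05MG Vec.

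Among the Jun genes, none passed in any line with WWOX (limma, adjusted p of 0.494 or more). JUN was lower in mean in U87MG WWOX (520, 515 and 746 CPM) than in U87MG Vec (583, 938 and 1113 CPM), a log2 difference of -0.60 (SE 0.308, limma adjusted p = 0.494) with overlap. In U251MG it stood at 608, 779 and 839 CPM beside 650, 572 and 486 CPM (log2 0.36), in T98G at 271 ± 81.4 beside 261 ± 25.2 CPM (0.02), and in DBTRG-05MG at 204 ± 47.5 beside 249 ± 76.0 CPM (-0.33). JUN held 66.3 ± 9.26% of Jun family tags in U87MG Vec and 52.6 ± 2.74% in U87MG WWOX, without overlap between 56.9% and 55.4%. This difference in shares was not tested. In DBTRG-05MG Vec JUNB, which opposes JUN in many settings, held the larger share, 44.8 ± 1.82%, beside 36.1 ± 3.92% for JUN.

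JUNB had log2 differences between -0.65 (DBTRG-05MG) and 0.44 (U251MG), JUND between -0.25 (DBTRG-05MG) and 0.42 (U87MG), and BATF3 between -0.46 (DBTRG-05MG) and 0.52 (T98G), all with overlapping libraries. JUNB in U251MG WWOX ran from 158 to 500 CPM and JUND from 119 to 320 CPM, and JUND in T98G WWOX ran from 96.3 to 279 CPM. In deviations from the group means JUNB correlated with JUN at 0.74, with FOSL1 at 0.72, with JUND at 0.65 and with FOSL2 at 0.60, whereas FOS and FOSB correlated with FOSL2 at 0.03 and 0.01. FOS correlated with FOSL1 at 0.35, with JUNB at 0.40 and with JUND at 0.41, between these extremes. RELB, a subunit of NF-κB, was the gene most like JUNB by this measure (r 0.926), FKBP10 the gene most like JUND (0.929), BCAT2 most like JUN (0.883) and LSM10 most like BATF3 (0.906).

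Over the 4 lines, the mean WWOX effect passed for 0 of 8 members with limma, edgeR or DESeq2, beside 1.78% of all genes with limma (15.4% at an unadjusted p under 0.05). FOSB (1.02, unadjusted p = 0.0187) and FOSL1 (-0.55, unadjusted p = 0.0324) were the 2 under 0.05 before adjustment in limma. The exact permutation test within lines gave p = 0.0548 for FOSB and 0.192 for FOS, where the smallest p that 160000 arrangements can give is 1.3e-05, and after adjustment 0 of the 12327 genes (0.0%) passed. Without U87MG Vec replicate 1 the mean for FOSB was 1.33 (limma adjusted p = 0.0272).

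Other genes of the pathway were followed as 4 lists. Of the bZIP genes that pair with AP-1 proteins, such as ATF, CREB and MAF genes, 16 of 20 were tested and 0 passed with WWOX in any line by limma. Their median log2 fold change was 0.23 in U87MG and 0.27 in U251MG, with 13 and 15 of 16 estimates above 0, and 0.12 in T98G and 0.02 in DBTRG-05MG. At an unadjusted limma p under 0.05 there was 1 gene in each line but U87MG, which had 0. The shares of all genes under that threshold were 11.5% in U87MG, T98G and U251MG and 7.63% in DBTRG-05MG. ATF3, a stress-induced bZIP gene on this list and among the immediate-early genes, had 96.9, 11.5 and 15.7 CPM in U87MG Vec and 83.6, 62.5 and 152 CPM in U87MG WWOX. Here too, in U87MG, Vec replicate 1 was the high control library. In U251MG, ATF3 had 114, 7.003 and 85.5 CPM with Vec and 133, 188 and 31.2 CPM with WWOX. U251MG Vec replicate 3 was thus high for ATF3 as well, at 4.69 CPM of FOS and 0.871 CPM of FOSB. U251MG WWOX replicate 3 was the lowest WWOX library of that line for ATF3, at 13.9 CPM of FOSB. Of the kinases and regulators upstream of AP-1, such as ERK, JNK and SRF genes, 22 of 23 were tested and 0 passed by limma, with 2, 1, 1 and 2 at an unadjusted p under 0.05 and medians between -0.21 (U87MG) and -0.11 (U251MG).

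Of 35 other immediate-early genes, 30 were tested, and 2 passed, both lower with WWOX in T98G, where 1.14% of all genes passed. IER3, an early gene that modulates survival signalling, had 88.8, 48.9 and 84.3 CPM in T98G Vec and 1.67, 1.19 and 0.396 CPM in T98G WWOX, a log2 difference of -5.63 (SE 0.565, limma adjusted p = 2.71e-06). In U87MG it stayed between 236 and 327 CPM in both variants, and in U251MG and DBTRG-05MG at or under 5.88 CPM. PHLDA1 had 621, 486 and 421 CPM in T98G Vec and 216, 238 and 148 CPM in T98G WWOX (-1.35, limma adjusted p = 0.0392), and the count of 2 fell to 1 under 3 other settings and without any of 14 libraries. In DBTRG-05MG PHLDA1 had 950, 790 and 877 CPM in Vec and 418, 437 and 325 CPM in WWOX without overlap, yet the difference of -1.22 did not pass (adjusted p = 0.0800). EGR1, the zinc-finger gene most often induced together with FOS, had 45.5, 24.1 and 108 CPM in DBTRG-05MG Vec and 13.0, 17.0 and 7.95 CPM in DBTRG-05MG WWOX (-2.04, limma adjusted p = 0.310). It went the other way in U87MG, with 45.7, 13.6 and 27.3 CPM in Vec and 191, 38.1 and 34.8 CPM in WWOX, with overlap. In U251MG EGR1 had 114, 26.2 and 30.9 CPM in Vec and 34.8, 182 and 77.5 CPM in WWOX. T98G libraries had at most 18.4 CPM.

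The 30 immediate-early genes had medians of 0.42 in U251MG, 0.32 in U87MG, 0.01 in T98G and -0.15 in DBTRG-05MG. By limma 0 passed in U87MG, U251MG and DBTRG-05MG, with 4, 4 and 3 at an unadjusted p under 0.05. The shares of all genes under that unadjusted p were 11.5%, 11.5% and 7.63%. Those with the highest correlation of deviations were DUSP1 (0.82), EGR1 (0.72) and ZFP36 (0.70) for FOS, and DUSP1 (0.83), CCN2 (0.81) and NR4A1 (0.76) for FOSB.

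Of 30 known AP-1 target genes 27 were tested, and 2 passed, both lower with WWOX in U87MG, where 3.2% of all genes passed. In the other 3 lines 0 of the 27 passed by limma. Before adjustment, a limma p under 0.05 was found for 6 of the 27 in U87MG, 5 in T98G and 4 in U251MG (11.5% of all genes in each line). In DBTRG-05MG it was found for 3 (7.63% of all genes). Their medians were -0.33 in T98G, -0.14 in U87MG and -0.01 in both other lines.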

How the data were processed

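CAGE libraries of 24 samples were analysed, 3 for each of 8 groups. Per the labels and the study's methods, RNA was extracted with Extracol and libraries were made with the DNAFORM CAGE kit. The submitters' processing notes name STAR, SAMtools, hg38 and limma 3.42; the counter, annotation and use of strand in counting are not given in the sources used here. The values the authors deposited are CPM per gene. All were whole multiples of 1 tag (tolerance 0.01), so that tags were recovered. Symbols matched 43033 of 43037 Ensembl identifiers, and the 24 single-library files equalled the table.

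CPM were scaled by TMM factors (edgeR 4.0.16, unweighted), and log2(value + 0.5) was fitted for 12327 genes with 5 CPM or more in at least 1 library, using limma 3.58.1 with a mean-variance trend in R 4.3.3, 8 group means and 16 residual degrees of freedom. P-values were Benjamini-Hochberg adjusted over all genes tested, with a threshold of 0.05, for 15 contrasts; Vec groups are shared between contrasts. P-values measure the spread between these libraries. Levels are CPM as deposited. Counting floors cover counting error only. Fits were tested on simulated data, where 12 of 113 limma calls were false. Alternatives were edgeR, limma-voom and DESeq2 1.42.0 on recovered tags, other pseudocounts, filters and scalings, a model per line, a replicate block and each library left out.

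Members, lists and comparisons were chosen with earlier results of these data known. Named were all 8 members, list genes past the threshold, and the 3 genes most like each member; ATF3, EGR1, ZFP36, CCN2 and NR4A1 were named after their values were seen. No 2 libraries agreed within sampling noise. Replicate numbers were not used to pair libraries. Values of some genes that the naming rule selects are not reported here.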

Additional observations from a re-analysis of the deposited data

Results flagged for a closer look

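FOSL2 moved in opposite directions without overlap in 2 lines, with a log2 fold change of WWOX against Vec of -0.46 in T98G and 0.75 in DBTRG-05MG. Neither passed (limma adjusted p = 0.637 and 0.531). Of all genes, 9.21% were lower without overlap in T98G and 9.46% were higher without overlap in DBTRG-05MG. FOSL2 had been singled out by the study on these libraries, so its values are not independent of that choice. The difference between these 2 lines was not tested by itself; against the mean of all 3 other lines, DBTRG-05MG differed by 1.29 (limma adjusted p = 0.127).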

How the results depend on the processing

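For single genes, 2152 alternative values kept direction and side of the threshold, 33 lost a call, 16 gained one and 58 changed sign; the cause was not tested. Replicate numbers did not pair the libraries: of 12 same-number pairs, 4 had a correlation of deviations over 0.1 (-0.546 to 0.510), and 3 libraries correlated best with their own number.

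Changed signs were, for FOSB in T98G, -0.013 with a pseudocount of 0.1, -4.7e-05 with CPM as deposited and -0.050 with limma-voom; for JUND in U251MG 0.19 (edgeR), 0.0055 (limma-voom) and 0.22 (DESeq2), and in the mean of 4 lines 0.029 (CPM as deposited), 0.060 (edgeR), 0.0060 (limma-voom) and 0.069 (DESeq2); for BATF3 in U87MG 0.021 (CPM as deposited); and for WWOX in U251MG 0.0066 (CPM as deposited), 0.087 (edgeR), 0.018 (limma-voom) and 0.077 (DESeq2).

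Of member calls between Vec groups, U87MG against DBTRG-05MG gave 3 with no filter, and T98G against DBTRG-05MG 1 with CPM as deposited and 2 with Vec libraries only. DESeq2 called 1 bZIP partner in T98G and 1 in U251MG, 1 upstream gene in T98G, and 1 immediate-early gene in U251MG and 1 in DBTRG-05MG. Immediate-early calls in T98G were 1 with a mean of at least 5 CPM, 1 with a separate model per line and 1 with the replicate block, and in DBTRG-05MG 2 with a separate model. AP-1 target calls in U87MG were 1 in each of these (mean of at least 5 CPM, separate model, replicate block). The block moved no other count of members or list genes by over 1.5 times. Calls over all genes, the background of these counts, were 395 in U87MG (186 with a separate model to 618 with no filter), 140 in T98G (11 with a separate model to 273 with DESeq2), 39 in U251MG (2 with a separate model to 162 with DESeq2, and 557 without U251MG WWOX replicate 2) and 126 in DBTRG-05MG (49 with edgeR to 395 with no filter).

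With 1 library left out, member calls ranged from 0 to 2 in U87MG, 0 to 1 in the mean, 0 to 2, 0 to 1 and 0 to 1 for the differences of U87MG, U251MG and DBTRG-05MG from the other lines, 3 to 5 for U87MG against DBTRG-05MG, 1 to 3 for T98G against U251MG and 0 to 2 for T98G against DBTRG-05MG. List calls ranged from 0 to 1 for bZIP partners in T98G and U251MG and upstream genes in T98G, 0 to 1 for immediate-early genes in U87MG, U251MG and DBTRG-05MG, 1 to 2 in T98G, and 1 to 3 (U87MG) or 0 to 1 (T98G, U251MG) for AP-1 targets. Log2 fold changes ranged for FOS in T98G from -0.32 to 0.12, FOSB in T98G from -0.24 to 0.29, FOSL1 in U251MG from -0.75 to 0.98, FOSL2 in U251MG from -0.78 to 0.019, JUN in T98G from -0.24 to 0.15, JUNB in U251MG from -0.11 to 1.04 and in the mean from -0.26 to 0.034. JUND ranged from -0.035 to 0.69 in U87MG, -0.70 to 0.35 in U251MG and -0.63 to 0.16 in T98G, and in the mean from -0.18 to 0.088, BATF3 in U87MG from -0.37 to 0.21, in U251MG from -0.49 to 0.55 and in the mean from -0.12 to 0.15, and WWOX in U251MG from -0.30 to 0.23.

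With 3 libraries a group, simulated 2-fold changes were mostly not recovered, in genes drawn from all those with 5 CPM or more in U87MG Vec. FOS and FOSB spread more than most genes (98.8th and 99.4th percentiles of residual SD), so that recovery does not describe them. FOSB in DBTRG-05MG rested on 9 tags or fewer a library.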
